A study of Homo sapiens with 12 samples.

Results

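A set of 10 genes that govern the passage of cells from G1 into S phase was followed in RNA-seq of the CAL27/tet-MUC1shRNA line and of HSC3/tet-MUC1shRNA cells, chosen by symbol: the D-type cyclins CCND1, CCND2 and CCND3, the E-type cyclins CCNE1 and CCNE2, the kinases CDK4 and CDK6, and the CDK inhibitors CDKN1A (p21), CDKN1B (p27) and CDKN2B (p15). They are 10 of the 39368 symbols in the count tables, and all 10 passed the filter on low counts in each of the 4 comparisons. D-type cyclins bind CDK4 or CDK6 and start the phosphorylation of RB, which releases the E2F transcription factors. E-type cyclins, themselves E2F targets, then bind CDK2 and carry the cell into S phase. CDKN2B belongs to the INK4 family, which binds CDK4 and CDK6 alone, whereas CDKN1A and CDKN1B belong to the CIP/KIP family and inhibit CDK2 complexes. Gains of the CCND1 region are common among squamous cell carcinomas of the head and neck (HNSCC).

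CAL27 and HSC3 are HPV-negative HNSCC cell lines, here carrying a MUC1 shRNA that doxycycline (DOX) switches on from the pLKO-tet-puro vector, and they were grown in DMEM and MEM, respectively. Each line was treated for 7 days with 0.1% DMSO (vehicle) or 500 ng/ml DOX, with 3 triplicate-culture libraries in each of 4 groups. No library of scrambled-shRNA cells was analysed here, so an effect of DOX itself cannot be told apart from that of the shRNA. The genes lie on GRCh38 (GENCODE v44) at chr11:69641156-69654474 (CCND1), chr12:4269771-4305353 (CCND2), chr6:41934934-42050357 (CCND3), chr19:29811991-29824312 (CCNE1), chr8:94879770-94896678 (CCNE2), chr12:57747727-57756013 (CDK4), chr7:92604921-92836573 (CDK6), chr6:36676460-36687337 (CDKN1A), chr12:12685498-12722369 (CDKN1B) and chr9:22002903-22009305 (CDKN2B), and reads were counted over their exons. The labels do not say whether a line is 1 clone or a pool of transduced cells. Medium and any processing batch of a line cannot be told apart from the line.

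The targeted gene MUC1 fell from 60.9 ± 2.61 to 3.28 ± 0.274 CPM (counts scaled to 1e+06 per library, mean ± SD, n = 3) in CAL27 cells and from 1.60 ± 0.161 to 0.214 ± 0.0834 CPM in HSC3 cells. The HSC3 DOX values of MUC1 rest on 46, 36 and 16 counts. With vehicle, MUC1 was 31.7-fold lower in HSC3 than in CAL27 cells. Library totals ran from 89730914 to 169065103 counts. Counts per molecule, estimated from missing counts of low genes, were 2.45 to 7.43 in 9 libraries of CAL27 and vehicle-treated HSC3 cells and 8.93 to 17.2 in the 3 HSC3 DOX libraries. HSC3 DOX replicate 1 stood apart with the highest of these values (17.2) and the fewest genes detected (19128), so HSC3 results are also given without it. The squamous epithelial markers KRT5 (1443 to 3701 CPM) and TP63 (349 to 851 CPM) were present in all 4 groups. The 7 markers of other cell types summed to 6.53 to 10.2 CPM in the group means, most of it the collagen COL1A1 (4.59 to 8.40 CPM), while COL3A1 was at 0 in each. COL1A1 passed as higher with DOX in HSC3 cells (log2 0.73, adjusted p = 0.0089) and the fibroblast marker PDGFRB as lower in CAL27 cells, where it was under 1 CPM. Of the 8 squamous markers, 6 passed the test as lower with DOX in each line, and the part of either marker list in the results below was not tested.

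In vehicle-treated cells the lines differed in the mRNA levels of most of the 10 genes. Of the 10 genes, 7 were higher in HSC3 than in CAL27 cells at an adjusted p under 0.05 (30.6% of all genes tested were), and CCND3 and CCNE1 were lower (32.3% of all genes). CCND2 showed the widest gap of the 10. It measured 12.6, 13.6 and 14.3 CPM in CAL27 cells and 2704, 2747 and 2914 CPM in HSC3 cells, on a scale set over all 12 libraries. The difference was 206-fold (log2 difference 7.69 ± 0.089 SE, adjusted p = 3.5e-17, edgeR). By its CPM, CCND2 ranked 24 among the listed genes in HSC3 vehicle cells and 8185 in CAL27 vehicle cells.

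CDKN1A, which stops several CDK complexes, followed with 17.4, 18.5 and 18.7 CPM in CAL27 cells and 144, 146 and 148 CPM in HSC3 cells. The HSC3 level was 8.001-fold higher (log2 3.0 ± 0.070 SE, adjusted p = 1.4e-14). CCND1 was higher in HSC3 cells by 1.99 (SE 0.059), CDKN2B by 1.43 (SE 0.068), CCNE2 by 0.56 (SE 0.12) and CDK6 by 0.49 (SE 0.059) on the log2 scale.

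CCNE1 was the more abundant in CAL27 cells, at 7.56, 8.13 and 8.31 CPM against 1.57, 1.63 and 1.68 CPM in HSC3 cells (log2 -2.30 ± 0.17 SE, adjusted p = 8.5e-09). CCND3 was lower in HSC3 cells as well, by -2.13 (SE 0.17). For CDK4, 61.2 to 69.4 CPM in CAL27 cells overlapped 62.4 to 68.9 CPM in HSC3 cells, and the 95% interval of the log2 difference was -0.20 to 0.16. The CDKN1B difference was 0.22 (SE 0.062, adjusted p = 0.0057), and scaling by library totals turned it to -0.049 (adjusted p = 0.47). That scaling moved the median over all genes from -0.12 to -0.39.

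**Figure D1:**
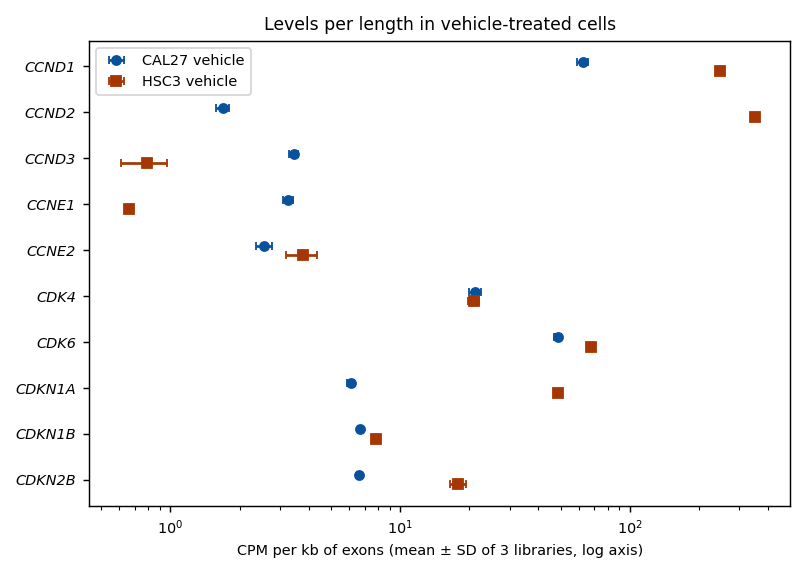
Levels of the 10 genes in vehicle-treated cells, as CPM per kilobase of exons on a log axis. Points and bars give the mean ± SD of 3 libraries, circles for CAL27 and squares for HSC3. CCND2 lies farthest apart between the lines (1.69 against 349), and CDK4 lies at almost the same level (21.2 against 20.9).

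Levels of different genes were compared per kilobase of exons. In CAL27 vehicle cells the order began with CCND1 (62.2 ± 3.44 CPM per kilobase), CDK6 (48.5 ± 1.75) and CDK4 (21.2 ± 1.32). CDKN1B (6.70 ± 0.125) and CDKN2B (6.62 ± 0.115) overlapped, CDKN1A (6.08 ± 0.236) lay just under both, and CCND3 (3.44 ± 0.158) overlapped CCNE1 (3.25 ± 0.160). CCNE2 (2.56 ± 0.206) and CCND2 (1.69 ± 0.108) closed the order. In HSC3 vehicle cells CCND2 (349 ± 13.9) stood above CCND1 (247 ± 8.74), CDK6 (67.9 ± 2.46), CDKN1A (48.7 ± 0.606), CDK4 (20.9 ± 1.18), CDKN2B (17.9 ± 1.36), CDKN1B (7.81 ± 0.225) and CCNE2 (3.77 ± 0.583). CCND3 (0.789 ± 0.181) and CCNE1 (0.662 ± 0.0218) overlapped at the low end. The order depends on the length used. By coding length CDK6 (607) stood above CCND1 (335) in CAL27 vehicle cells and CDKN1B (101) above CDK4 (72.1), and CCNE1 (6.51) was the lowest there. In HSC3 vehicle cells the first 4 genes kept their order, and CDK4 (71.2) lay under all 3 inhibitors.

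The D-type pool therefore differed in makeup. CCND1 was 92.4% ± 0.630 of summed D-type cyclin mRNA per kilobase in CAL27 vehicle cells and 41.4% ± 0.561 in HSC3 vehicle cells, where CCND2 was 58.5% ± 0.584. CCNE1 was 56.0% ± 0.967 of the E-type pool in CAL27 cells and 15.1% ± 2.21 in HSC3 cells. Dividing by coding length instead gave CCNE1 a share of 41.3% in CAL27 cells, so which E-type cyclin predominates there depends on the length used. CDK6 held 69.6% ± 1.73 and 76.5% ± 1.18 of the CDK4 plus CDK6 pool in CAL27 and HSC3 cells, respectively. Among the 3 inhibitors, the CAL27 pool was nearly even, with CDKN1A at 31.3% ± 0.715, whereas CDKN1A made up 65.4% ± 1.39 of the HSC3 pool. By coding length CDKN1B was 50.0% of the CAL27 inhibitor pool in place of 34.5%. The same length gave CDKN1A 50.5% of the HSC3 inhibitor pool and CCND2 69.7% of the HSC3 D-type pool. It gave CDK6 shares of 89.4% in CAL27 and 92.3% in HSC3 vehicle cells.

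**Figure D2:**
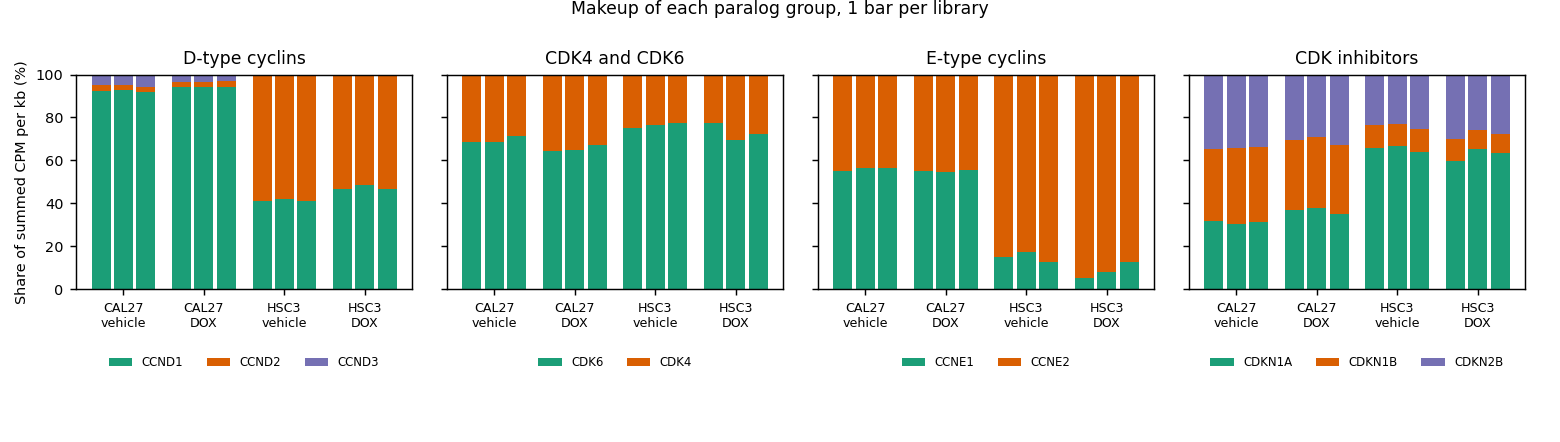
Makeup of the D-type cyclin, CDK4 plus CDK6, E-type cyclin and inhibitor pools, as the percent of summed CPM per kilobase of exons, 1 stacked bar per library. CCND1 fills 91.7% to 94.3% of each CAL27 D-type bar, and CCND2 fills 51.2% to 58.9% of each HSC3 bar.

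In CAL27 cells treated with DOX, the cyclins changed more than the kinases and inhibitors. By edgeR's quasi-likelihood test, 7 of the 10 genes passed at an adjusted p under 0.05 as higher with DOX and 0 as lower, against 22.6% and 21.8% of all genes tested. The count of lower genes was 1 at an unadjusted p under 0.05 and 0 by DESeq2. CCND1 and CCND2 also passed a 2-fold limit, which 6.42% of all genes passed. In bulk RNA, fewer cells of one state and less RNA per cell cannot be told apart. CCND1 was at 306, 335 and 337 CPM with vehicle and 817, 836 and 919 CPM with DOX, scaled within the line. All DOX libraries lay above all vehicle libraries, by 2.63-fold (log2 1.39 ± 0.049 SE, adjusted p = 9.0e-14, edgeR). Its rank among listed genes went from 474 to 92.

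CCND2 rose by a similar amount from a far lower level. It was at 13.99, 15.03 and 15.6 CPM with vehicle and 36.4, 37.8 and 42.2 CPM with DOX (log2 1.38 ± 0.063 SE, adjusted p = 7.7e-13). CCND3 went from 21.0, 21.6 and 22.9 CPM to 35.9, 36.3 and 36.7 CPM, a log2 change of 0.73 ± 0.052 SE. The summed level per kilobase of the 3 D-type cyclins was 2.58-fold higher with DOX (67.4 ± 3.34 to 174 ± 10.2). The share of CCND1 in that sum went from 92.4% to 94.2% ± 0.15, and that of CCND3 from 5.12% ± 0.467 to 3.30% ± 0.190. The exact permutation test of these shares and sums gave p = 0.1 for each, the smallest that 3 against 3 libraries allow.

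The E-type cyclins rose together in CAL27 cells. CCNE1 was at 8.39, 8.97 and 9.08 CPM with vehicle and 14.2 CPM in each DOX library (log2 0.69 ± 0.069 SE, adjusted p = 8.0e-08). CCNE2 was at 11.6, 12.3 and 13.3 CPM against 20.2, 20.9 and 20.9 CPM (log2 0.74 ± 0.065 SE, adjusted p = 1.4e-08). The share of CCNE1 in the E-type pool (55.1% ± 0.459 with DOX) differed by less than 1 percentage point from vehicle. Of the CCNE2 exons, 37.1% lie under INTS8 and another gene on the opposite strand, and whether the counting used strand is not given in the sources used here.

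Kinases and inhibitors moved little in CAL27 cells. CDK4 was at 67.5, 73.3 and 75.8 CPM with vehicle and 80.2, 81.5 and 84.5 CPM with DOX (log2 0.18 ± 0.045 SE, adjusted p = 0.0022). The call was lost in 1 fit over all 12 libraries (adjusted p = 0.13), and 44.2% of the CDK4 exons lie under TSPAN31 on the opposite strand. CDK6 overlapped between groups (632 to 673 and 578 to 645 CPM), with a 95% interval of -0.18 to 0.00 for the log2 change, and passed as lower only without 1 of the 3 DOX libraries (adjusted p = 0.012). Summed CDK4 and CDK6 per kilobase were 69.7 ± 1.81 and 69.8 ± 2.09.

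CDKN1A was the inhibitor that rose in CAL27 cells, from 19.3, 20.4 and 20.5 CPM to 21.9, 24.6 and 25.3 CPM (log2 0.25 ± 0.062 SE, adjusted p = 0.0022). CDKN1B overlapped between groups, with a 95% interval of -0.15 to 0.04. CDKN2B was at 29.0, 29.0 and 29.5 CPM with vehicle and 24.9, 27.5 and 27.8 CPM with DOX, groups that did not overlap but did not pass the test (log2 -0.13, adjusted p = 0.066). It passed in 4 of 12 alternatives (adjusted p 0.031 to 0.036). The summed inhibitors per kilobase were 19.4 ± 0.322 and 19.8 ± 1.07. The log2 ratio of D-type cyclins to inhibitors went from 1.79 ± 0.0823 to 3.13 ± 0.152, with no overlap (exact permutation p = 0.1). By coding length it was 0.88 with vehicle and 2.26 with DOX.

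**Figure D3:**
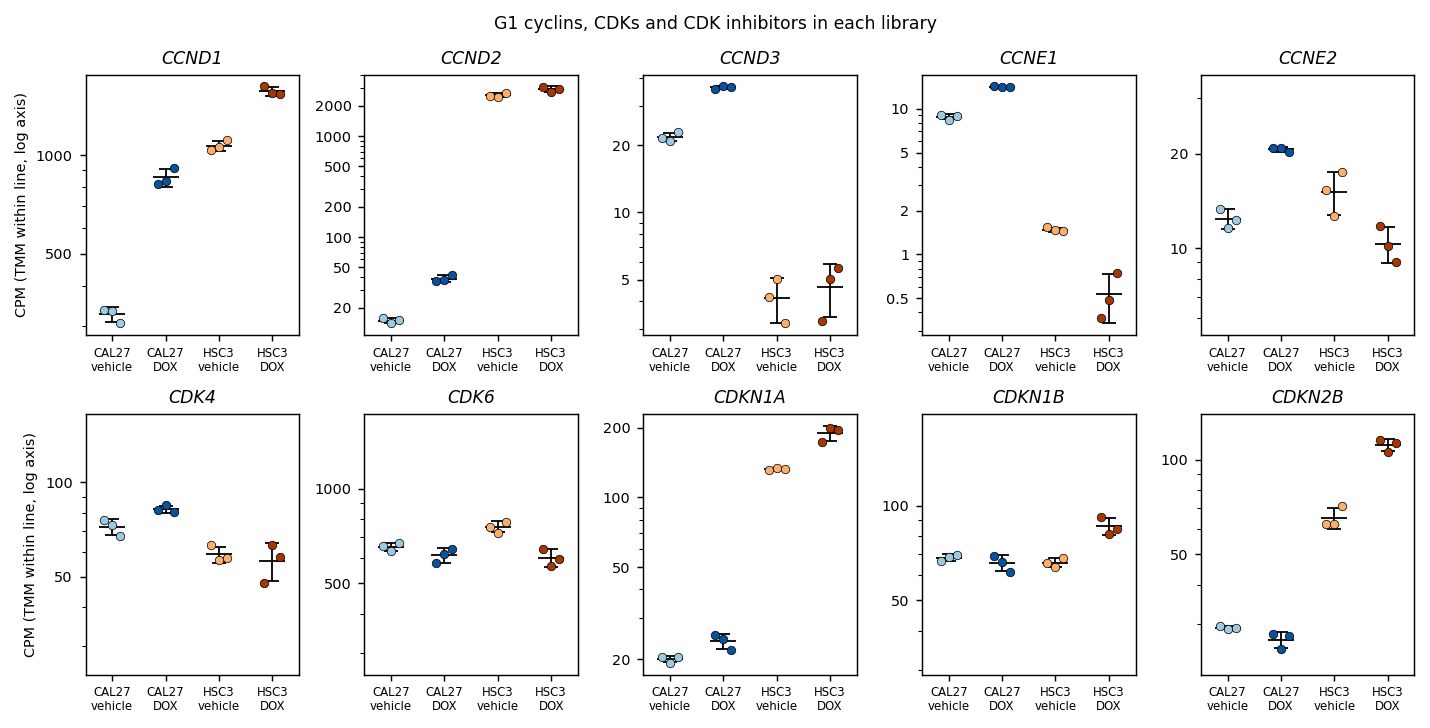
CPM of the 10 genes in each of the 12 libraries, scaled within each line, on log axes that differ between panels. Points are libraries, and the horizontal lines give the mean and 1 SD on either side for 3 libraries. CCND1 steps up with DOX in both lines, while CCNE1 and CCNE2 step up in CAL27 and down in HSC3 cells.

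HSC3 cells responded to DOX with higher inhibitors and lower E-type cyclins. With DOX, 5 of the 10 genes were higher (CCND1, CCND2, CDKN1A, CDKN1B and CDKN2B) and 3 were lower (CCNE1, CCNE2 and CDK6) at an adjusted p under 0.05, against 13.0% and 15.4% of all genes tested. CCNE1 alone passed the 2-fold limit as well, which 5.98% of all genes passed. Without HSC3 DOX replicate 1, 8 of the 10 genes were again called, while the calls over all genes went from 5124 to 6869.

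CDKN2B rose most among the inhibitors. It was at 62.2, 62.2 and 71.1 CPM with vehicle and 106, 113 and 115 CPM with DOX, without overlap, a 1.71-fold difference (log2 0.77 ± 0.074 SE, adjusted p = 2.3e-05, and 0.75 without DOX replicate 1). CDKN1A was at 131, 133 and 134 CPM with vehicle and 173, 196 and 199 CPM with DOX (log2 0.51 ± 0.067 SE, adjusted p = 2.0e-04). CDKN1B was at 63.8, 65.6 and 68.1 CPM against 81.5, 84.4 and 92.2 CPM (log2 0.39 ± 0.070 SE, adjusted p = 0.0018). The changes without DOX replicate 1 were 0.57 for CDKN1A and 0.33 for CDKN1B. Summed per kilobase, the inhibitors went from 74.4 ± 1.68 to 111 ± 3.03, or 1.49-fold.

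These 3 inhibitors rose together in HSC3 cells, though not in CAL27 cells, and CCNE1 fell in HSC3 cells. The 250 bases upstream of the RefSeq start sites of these 4 genes are shown. The genes were picked by these responses, so the letters are given as a description. They come from RefSeq on GRCh38.p14: chr6:36678464-36678713 (plus strand) for CDKN1A, chr12:12717118-12717367 (plus strand) for CDKN1B, chr9:22009306-22009555 (minus strand) for CDKN2B and chr19:29811741-29811990 (plus strand) for CCNE1. Each is written 5′ to 3′ on the strand of its gene, and capitals mark the GC box GGGCGG on either strand.
CDKN1A: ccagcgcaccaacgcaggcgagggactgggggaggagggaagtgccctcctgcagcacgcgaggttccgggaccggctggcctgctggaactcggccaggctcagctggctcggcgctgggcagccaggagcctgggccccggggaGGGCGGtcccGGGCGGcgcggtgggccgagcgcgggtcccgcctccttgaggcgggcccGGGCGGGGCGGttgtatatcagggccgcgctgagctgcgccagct
CDKN1B: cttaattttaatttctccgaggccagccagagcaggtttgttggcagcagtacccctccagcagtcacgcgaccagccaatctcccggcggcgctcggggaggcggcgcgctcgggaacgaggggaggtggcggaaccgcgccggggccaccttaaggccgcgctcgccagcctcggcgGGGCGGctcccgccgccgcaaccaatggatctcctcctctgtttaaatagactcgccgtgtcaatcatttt
CDKN2B: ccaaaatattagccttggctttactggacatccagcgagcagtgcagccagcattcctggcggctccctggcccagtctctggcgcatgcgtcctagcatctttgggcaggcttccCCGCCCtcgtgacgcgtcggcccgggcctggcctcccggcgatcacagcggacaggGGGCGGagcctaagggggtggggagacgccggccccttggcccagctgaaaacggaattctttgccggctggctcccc
CCNE1: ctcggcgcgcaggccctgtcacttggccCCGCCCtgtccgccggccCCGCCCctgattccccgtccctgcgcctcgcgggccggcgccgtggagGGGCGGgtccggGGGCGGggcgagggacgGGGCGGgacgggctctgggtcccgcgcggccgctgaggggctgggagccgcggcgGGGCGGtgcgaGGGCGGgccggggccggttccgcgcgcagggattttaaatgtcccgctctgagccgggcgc
The GC box occurred 4 times upstream of CDKN1A (2 of them overlapping by their last and first base), 1 time for CDKN1B, 2 times for CDKN2B and 7 times for CCNE1. It was present in 42.6% of the 35116 RefSeq windows of the same length. The E2F letters TTTCCCGC, TTTGGCGC, TTTCGCGC and TTTGCCGC, read on both strands, were in 2.79% of windows and in none of the 4 shown. A match describes letters and is not a binding site. The RefSeq table used here listed 7 of the 10 genes, without CCND1, CCND2 and CCNE2. CCND3, CDK4 and CDK6, listed there and not shown, also had the GC box.

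Among the cyclins of HSC3 cells, CCNE1 fell furthest. It was at 1.44, 1.48 and 1.53 CPM with vehicle and 0.364, 0.488 and 0.752 CPM with DOX, 2.78-fold lower (log2 -1.47 ± 0.33 SE, adjusted p = 0.0062, and -1.26 without DOX replicate 1). The DOX values rest on 60, 72 and 100 counts, in libraries with 8.93 to 17.2 counts per molecule. CCNE2 was at 12.6, 15.3 and 17.4 CPM against 9.04, 10.2 and 11.7 CPM (log2 -0.55 ± 0.14 SE, adjusted p = 0.014). Its call was lost without vehicle replicate 1 (adjusted p = 0.058), vehicle replicate 3 (0.079) or DOX replicate 3 (0.061). The E-type sum went from 4.43 ± 0.573 to 2.83 ± 0.276 CPM per kilobase, without overlap. The share of CCNE1 in it was 12.9% to 17.3% with vehicle and 5.25% to 12.9% with DOX, and these ranges overlapped.

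On the log2 scale, CCND1 and CCND2 rose by less in HSC3 than in CAL27 cells, and CCND3 did not pass. CCND1 was at 1039, 1061 and 1115 CPM with vehicle and 1542, 1549 and 1627 CPM with DOX (log2 0.55 ± 0.058 SE, adjusted p = 4.0e-05). CCND2 was at 2447, 2506 and 2661 CPM against 2738, 2952 and 3087 CPM (log2 0.20 ± 0.065 SE, adjusted p = 0.035). The CCND2 call was lost without vehicle replicate 1 (adjusted p = 0.13), vehicle replicate 2 (0.16) or DOX replicate 3 (0.12). CCND3 was low and variable, with 3.18 to 5.04 CPM and 3.26 to 5.61 CPM and a 95% interval of -0.34 to 0.68. Summed per kilobase, the D-type cyclins went from 597 ± 21.5 to 769 ± 39.0, or 1.29-fold. That step of 172 CPM per kilobase was larger than the 107 in CAL27 cells. The share of CCND1 in the D-type pool went from 41.4% to 47.4% ± 1.09 and that of CCND2 from 58.5% to 52.5% ± 1.10, with no overlap between groups (exact permutation p = 0.1).

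CDK6 was lower with DOX in HSC3 cells, at 725, 757 and 787 CPM with vehicle and 567, 598 and 645 CPM with DOX (log2 -0.33 ± 0.065 SE, adjusted p = 0.0031). CDK4 overlapped between the groups, with a 95% interval of -0.29 to 0.16, and its log2 change of -0.065 turned to 0.040 without DOX replicate 1. Per kilobase, CDKN1A (48.7) lay under CDK6 (67.9) with vehicle and above it with DOX (69.7 ± 4.76 against 54.3 ± 3.95), without overlap in either state. By coding length CDKN1A stayed under CDK6 with DOX (424 against 679.9), so this crossing depends on the length used. The log2 ratio of summed inhibitors to CDK4 plus CDK6 went from -0.26 ± 0.0484 to 0.57 ± 0.0601 in HSC3 cells, and from -1.84 ± 0.0209 to -1.82 ± 0.120 in CAL27 cells. By coding length the HSC3 values were -0.65 and 0.23. The log2 ratio of D-type cyclins to inhibitors went from 3.005 ± 0.0231 to 2.80 ± 0.107 in HSC3 cells, both under the 3.13 of CAL27 cells with DOX. By coding length the HSC3 values were 2.91 and 2.65, both above the 2.26 of CAL27 cells with DOX. The order of the lines in this ratio thus depends on the length used.

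**Figure D4:**
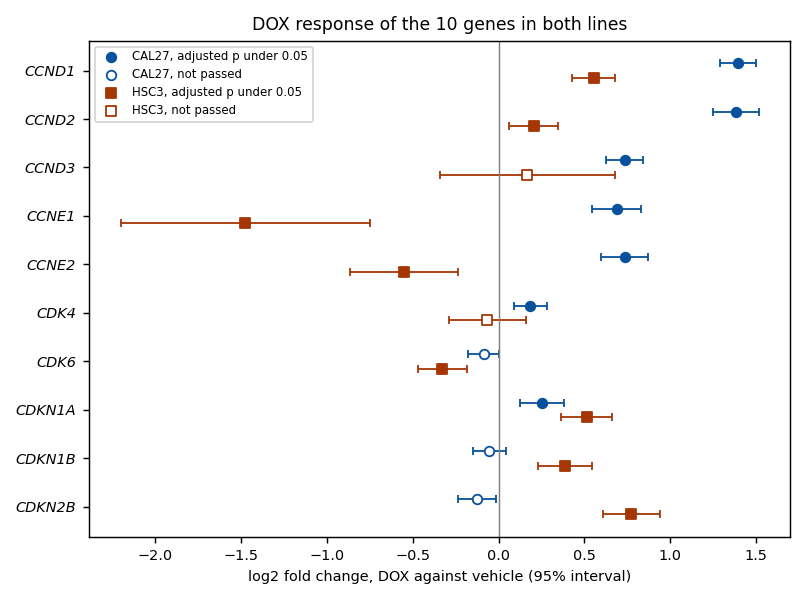
Change of the 10 genes with DOX in each line, as log2 fold change with its 95% interval. Circles are CAL27 and squares are HSC3, filled where the adjusted p was under 0.05. The E-type cyclins lie on opposite sides of 0 in the 2 lines, and the 3 inhibitors lie farther right in HSC3 than in CAL27 cells, although the CDKN1A difference did not pass its own test (adjusted p = 0.057).

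Whether the lines responded differently was tested with a line-by-DOX interaction, fitted to the 12 libraries together. On the log2 scale, CCND1, CCND2, CCNE1 and CCNE2 changed less or fell relative to CAL27 (12.3% of all genes tested were lower in this term). CDKN1B and CDKN2B changed more (8.25% of all genes). CCNE1 had the largest difference of the 10, with -2.17 on the log2 scale (95% interval -2.69 to -1.65, adjusted p = 1.6e-05, edgeR). CCNE2 differed by -1.28 (adjusted p = 6.0e-05), CCND2 by -1.17 (8.5e-07) and CCND1 by -0.84 (3.9e-06). The inhibitors CDKN2B and CDKN1B differed by 0.90 (adjusted p = 8.2e-06) and 0.44 (0.0020). These 6 kept their calls in all 17 alternative fits.

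The other 4 members did not pass. The intervals were -1.07 to -0.06 for CCND3, -0.50 to 0.00 for CDK4, -0.41 to -0.06 for CDK6 and 0.07 to 0.46 for CDKN1A, none of which shows an equal response in the lines. CDKN1A passed in 6 of 17 alternatives (adjusted p 0.0017 to 0.047) and CDK6 in 2 of 17.

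In the same 12 libraries, cell cycle gene lists moved in opposite directions between the 2 lines. Without CCNE2, which is on it, the list of S phase genes had a median log2 change of 0.32 in CAL27 cells, where 37 of 42 genes were higher and 0 lower at an adjusted p under 0.05 (edgeR). That count of lower genes was also 0 at an unadjusted p under 0.05 and by DESeq2. In HSC3 cells its median was -0.39, with 2 higher and 28 lower. The 54 G2 and M phase genes had medians of 0.17 (34 higher, 8 lower) in CAL27 and -0.30 (2 higher, 32 lower) in HSC3 cells. The median over all genes tested was -0.01 in each line. In the interaction, 39 of the 42 S phase genes and 46 of the 54 G2 and M phase genes were lower and 0 higher. Of all genes tested, 12.3% were lower and 8.25% higher in this term. The counts of higher genes in the lists were also 0 at an unadjusted p under 0.05 and by DESeq2. CCNE1 and CCNE2 had the direction of these lists in both lines, while CCND1 and CCND2 rose in both. Without HSC3 DOX replicate 1 the HSC3 medians were -0.40 and -0.34.

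**Figure D5:**
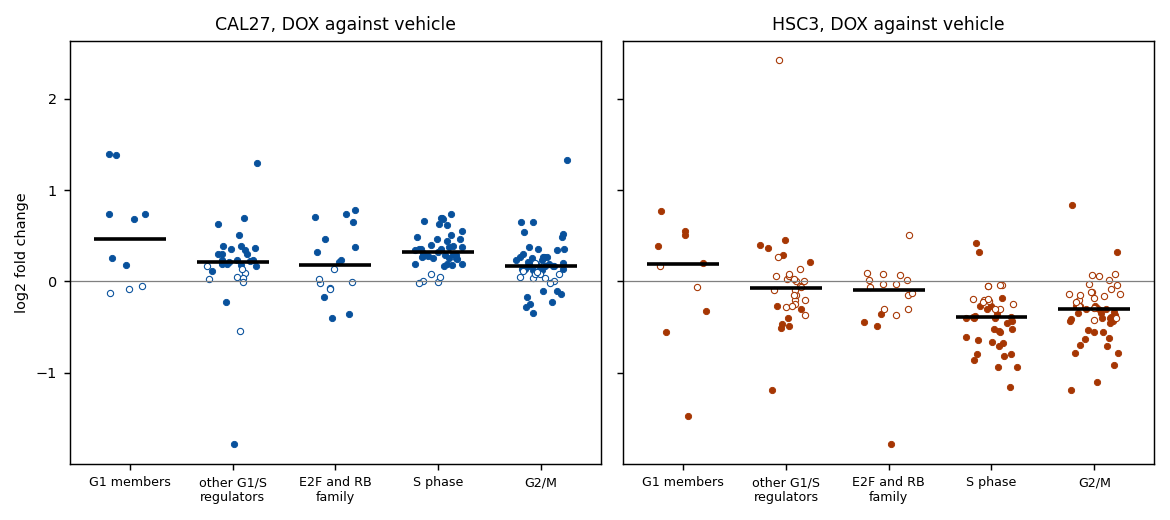
Log2 fold changes with DOX for the 10 genes and for lists of other G1/S regulators, E2F and RB family genes, S phase genes and G2/M genes, with CAL27 on the left and HSC3 on the right. Each point is a gene, filled where the adjusted p was under 0.05, and bars are medians. The S phase median is 0.32 in CAL27 and -0.39 in HSC3 cells, with CCNE2 included.

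Other genes of the pathway were less uniform. Of 33 further G1/S regulators tested in CAL27 cells, 23 were higher and 2 lower (median 0.21), while 5 of 34 were higher and 7 lower in HSC3 cells (median -0.07). The HSC3 shares of 14.7% and 20.6% are near those of all genes tested (13.0% and 15.4%), whereas 69.7% and 6.06% in CAL27 cells stand beside 22.6% and 21.8% of all genes. CDC25A, the phosphatase that activates CDK2, rose by 1.29 (SE 0.060) in CAL27 cells and changed by 0.03 (adjusted p = 0.84) in HSC3 cells. CDC6, which loads the replicative helicase, rose by 0.70 in CAL27 cells and fell by 0.27 in HSC3 cells. CDK2, the partner of the E-type cyclins, rose by 0.19 in CAL27 cells (adjusted p = 0.0014) and fell by 0.47 in HSC3 cells (adjusted p = 3.3e-04). SKP2, which targets p27 for degradation, rose in both lines, by 0.38 and 0.29. CCNC, the cyclin of the Mediator kinase, fell by 0.51 in HSC3 cells and had a value of 0.05 (adjusted p = 0.38) in CAL27 cells.

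Among 4 inhibitors outside the 10, 1 call was made, in CAL27 cells, where 22.6% of all genes tested were higher. CDKN2C (p18) rose by 0.21 in CAL27 cells (adjusted p = 0.0081) and had a value of -0.28 (adjusted p = 0.26) in HSC3 cells. CDKN1C (p57) was nearly absent, at 0.0631 to 0.336 CPM in the 4 group means, and passed in neither line. CDKN2A (p16 and p14ARF) and CDKN2D (p19) did not pass in either line, with CDKN2A at 42.5 to 47.3 CPM in the group means.

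Of 18 E2F and RB family genes, 9 were higher and 3 lower in CAL27 cells (median 0.17), and 0 were higher and 4 lower in HSC3 cells (median -0.10). The shares of lower genes, 16.7% and 22.2%, are near those of all genes tested (21.8% and 15.4%), and 50% were higher in CAL27 cells against 22.6% of all genes. The count of 0 higher genes in HSC3 cells was also 0 at an unadjusted p under 0.05 and by DESeq2. E2F1 and E2F7 rose by 0.78 and 0.74 in CAL27 cells and had values of -0.03 and -0.15 in HSC3 cells (adjusted p = 0.89 and 0.19). RBL1, which encodes the RB relative p107, fell in both lines, by 0.40 in CAL27 and by 1.79 in HSC3 cells. LIN54, a DNA-binding subunit of the DREAM and MuvB complexes, fell by 0.48 in HSC3 cells. RB1 had a value of -0.00 in CAL27 cells (adjusted p = 0.96) and fell by 0.44 in HSC3 cells (adjusted p = 0.0033).

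Among 25 genes of the inputs to D-type cyclins (EGFR and RAS signaling genes, MYC and other transcription factors), CAL27 cells had 10 higher and 10 lower, and HSC3 cells 5 higher and 5 lower. Of all genes tested, 22.6% were higher and 21.8% lower in the CAL27 line. For HSC3, 20% of this list passed each way, near the 13.0% and 15.4% of all genes.

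The genes whose log2 CPM followed each member most closely over the 12 libraries were also listed, among 8701 or 8702 genes. For CCND1 it was CAPN2 (Pearson r = 0.998), for CCND2 ITGB1 (0.999), for CCNE1 LMTK2 (0.997), for CDKN1A CCNY (0.999) and for CDKN2B TRAK1 (0.999). CCNE2 and CDK4 had looser nearest genes, HACD2 (0.951) and FLAD1 (0.930). The 12 libraries fall into 2 cell lines, so these values take in the difference between the lines and are given as a description.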

How the data were processed

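RNA from the CAL27/tet-MUC1shRNA line and from HSC3/tet-MUC1shRNA cells was measured by RNA-seq (TruSeq Stranded mRNA kit) in 12 libraries. The authors deposited 1 table of whole-number counts per gene symbol for each line, not normalized. The submitters' processing notes name FastQC 0.11.9, STAR 2.7.9a, featureCounts from Subread 2.0.1 and GRCh38. The counting annotation, strand setting and treatment of duplicates are not given in the sources used here. Groups follow the sample labels. The CAL27 DOX columns carry numbers of their own and were mapped to the group alone.

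Counts were analysed in R 4.3.3 with edgeR 4.0.16 (TMM, filterByExpr at a minimum count of 10 and at least 15 in total, robust glmQLFit, two-sided glmQLFTest). DOX responses were fitted within each line, and the baseline and interaction over all 12 libraries with 4 group means. The p-values were adjusted by Benjamini-Hochberg over all genes tested, with a threshold of 0.05. SE is the log2 change divided by the square root of F. CPM were TMM-scaled within a line or over all 12 libraries, as stated. Exon and coding lengths and overlaps came from GENCODE v44. The script was tested on simulated data. DESeq2 1.42.0, other scalings, no filter, counts divided by counts per molecule, 1 joint fit, the replicate block and leaving out each library were alternatives. No 2 replicates held the same values, and the chi-square per degree of freedom between replicates was 7.71 to 141. The named genes outside the 10 were the 2 with the smallest adjusted p per list and line (mean log2 CPM of at least 3) plus CDK2, RB1, E2F1, SKP2, CDKN1C and CDKN2C. The inhibitors CDKN2A and CDKN2D were named as well, outside this rule. 1 further list, with the genes named from it, is not reported here. For S and G2/M lists, no gene but CCNE2 was named. The members and lists were chosen with earlier results of these data known.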

Additional observations from a re-analysis of the deposited data

Results flagged for a closer look

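For 6 of the 10 genes the DOX response differed between HSC3 and CAL27 cells in the test of the difference itself (edgeR line-by-DOX interaction, adjusted p under 0.05, all 12 libraries). The differences, HSC3 minus CAL27 on the log2 scale, were -2.17 for CCNE1 (adjusted p = 1.6e-05), -1.28 for CCNE2 (6.0e-05), -1.17 for CCND2 (8.5e-07) and -0.84 for CCND1 (3.9e-06). They were 0.90 for CDKN2B (8.2e-06) and 0.44 for CDKN1B (0.0020). CCNE1 and CCNE2 rose in CAL27 and fell in HSC3 cells, although the CCNE2 call in HSC3 cells was lost without any 1 of 3 libraries (log2 change -0.54 to -0.43, adjusted p 0.058 to 0.079). CCND1 and CCND2 rose in both lines, by less on the log2 scale in HSC3 cells. There the CCND2 call (adjusted p = 0.035) was lost without any 1 of 3 libraries (0.12 to 0.16). The medium and any batch of a line cannot be told apart from the line. Counts per molecule were higher in HSC3 DOX (8.93 to 17.2) than in HSC3 vehicle libraries (4.18 to 7.43). All 6 genes were called after each library was divided by its counts per molecule. That division uses 1 factor per library, which the scaling largely cancels, so the part of this difference in the results was not tested.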

How the results depend on the processing

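Over all comparisons, 561 of 590 alternative values of the 10 genes kept their direction and side of the threshold. Requiring a log2 change above 1 in size as well left 2 of the 10 genes in CAL27, 1 in HSC3 and 3 in the interaction, and 1236, 1077 and 1078 of all genes, with 6592 at baseline. In 1 fit over all 12 libraries, 5083 genes were called in CAL27 in place of 8554, and CDK4 was lost there. Leaving out each library gave 7 to 9 of the 10 genes in CAL27, 6 to 8 in HSC3, 6 to 8 in the interaction and 9 at baseline. Over all genes, the calls ran from 7343 to 9001 in CAL27 and from 3567 to 6869 in HSC3. They ran from 3318 to 5847 in the interaction and from 12076 to 14287 at baseline. Some values that were near 0 reversed: CDK4 in HSC3 ran from -0.15 to 0.040 with each library left out (0.040 without DOX replicate 1), CDK4 at baseline from -0.077 to 0.010 (above 0 without CAL27 vehicle replicate 1 or HSC3 vehicle replicate 2), and CDKN1B at baseline was -0.049 with library totals. CDK4 passed at baseline with library totals (-0.29, adjusted p = 0.012). With the replicate block in HSC3, 7 of the 10 genes and 4478 of all genes were called in place of 8 and 5124, and CCND2 was lost (0.20, adjusted p = 0.054). The deviations of same-numbered HSC3 libraries had correlations of -0.10, 0.10 and -0.09. With 3 libraries per group, these values cannot decide whether the numbers pair the libraries. No paired analysis was possible for CAL27 or the interaction because the CAL27 DOX columns carry no replicate number. CCND3 passed in 2 and CDK4 in 1 of 17 alternatives of the interaction. The cause of these changes was not tested. The DOX medians given for S phase, G2/M, G1/S and E2F and RB genes kept their signs, while the HSC3 median over all genes ran from -0.04 to 0.00. CCNE1 in HSC3 DOX cells rests on 60 to 100 counts.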
